A study of Mus musculus with 18 samples.

Results

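The genes described here are 34 listed chaperones, co-chaperones, heat shock factors and subunits of the cytosolic chaperonin TRiC, out of 46603 genes in the raw count table of a culture experiment on mouse pancreatic acinar cells. They were taken by gene symbol from a list that was chosen with earlier results of these data known. All 34 were found and passed the filter on low counts, among 13203 genes tested. The list holds 7 genes of the HSP70 and HSP110 families, 3 small heat shock proteins, 4 J-domain proteins and BAG proteins, 7 genes of HSP90 and its co-chaperones, 2 heat shock factors and 8 TRiC subunits. It also holds 3 genes (Hspa9, Hspd1 and Hspe1) whose proteins work in the mitochondrial matrix and not in the cytosol.

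RNA was sequenced from freshly isolated acinar cells, the enzyme-secreting cells of the exocrine pancreas, held in suspension in Advanced RPMI medium. Cells came from xCT KO mice (xCT-/-), which lack the cystine carrier subunit encoded by Slc7a11, or from WT mice (xCT+/+), and were collected at day 0, day 1 and day 4. Each of the 6 groups had 3 libraries, 18 in all, and the labels name no further agent. The KO mice descend from the original knockout strain, and the age of the mice is not given in the sources used here.

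Chaperones bind unfolded stretches of other proteins and keep them from aggregating. HSP70 proteins do this with J-domain proteins and nucleotide exchange factors, HSP90 finishes the folding of kinases and receptors, small heat shock proteins hold misfolded chains, and TRiC is a ring of different subunits that encloses actin, tubulin and other clients. When unfolded proteins accumulate, the transcription factor HSF1 forms trimers that bind heat shock elements, inverted repeats of the unit nGAAn, and raises the transcription of the inducible chaperones. Acinar cells make more protein than almost any other cell, mostly digestive enzymes that fold in the endoplasmic reticulum and therefore outside the compartment of the chaperones described here.

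Depth lay between 12127474 and 14192071 counts a library at day 0. It lay between 13092204 and 15641110 at day 1, and between 17809132 and 20135435 at day 4. The composition of the libraries shifted with culture. The 13 listed acinar markers (digestive enzymes and acinar transcription factors) took 56.8% to 58.5% of counts in KO and 56.4% to 57.6% in WT libraries at day 0. They took 47.8% to 49.0% in KO and 50.1% to 51.1% in WT at day 1, then 6.44% to 7.47% in KO and 8.02% to 10.6% in WT at day 4. None of the 13 was at 0 in any group. The 34 chaperone genes together took 0.0709% to 0.0740% of counts in KO and 0.0602% to 0.0696% in WT at day 0. Their share was 0.444% to 0.521% in KO and 0.479% to 0.493% in WT at day 1, then 1.45% to 1.59% in KO and 1.28% to 1.504% in WT at day 4. Levels are therefore given as CPM, the counts of a gene relative to its library, scaled by the trimmed mean of M values (TMM), which sets the bulk of genes level between libraries. The TMM factors were 0.316 to 0.439 on day 0, 0.739 to 0.968 on day 1, and 2.76 to 3.38 on day 4. Under scaling to library totals alone, the median of all genes itself shifted on the log2 scale by 1.29 in KO and 0.998 in WT for day 1 against day 0. For day 4 against day 1 it shifted by 1.86 in KO and 2.03 in WT, so every change below is relative to the other genes. Slc7a11, the deleted gene, had 1 to 33 counts in KO libraries, against 48 to 2286 in WT libraries, without overlap at any day. The labels do not say that the libraries of a group came from separate mice, so p-values measure only the spread between these libraries. WT replicate 1 carried Y-linked transcripts and almost no Xist at each day, and all other libraries showed the reverse.

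Promoters were read from RefSeq (GRCm38.p6) as 300 bases, 250 before and 50 after each start, and searched on both strands. The search was for a heat shock element of 2 units (GAANNTTC or TTCNNGAA) and for the same element with 3 alternating units at the same spacing, which contains overlapping matches of the 2-unit form. Entries existed for 27 of the 34 genes; Hspa8, Hspa9, Cryab, Hsp90aa1, Hsp90ab1, Hsf1 and Cct4 had none. A 2-unit match was found for 15 of the 27 (55.6%), against 15.1% of all 32851 windows and 17% of all genes in the table. A 3-unit match was found for 4 of the 27 (14.8%), namely Hsph1, Hspd1, Hspe1 and Chordc1, against 0.603% of all windows and 0.662% of all genes. A match is a description of letters and was not tested as a binding site. The promoters of 5 genes are shown, as examples of inducible genes with a match (Hspa1b, Hspb1, Hsph1) and of matches of 3 units (Hsph1, Hspe1, Chordc1). Hspa1a is left out because its window is nearly that of Hspa1b, and Hspd1 because its 3-unit matches lie on the same bases as those of Hspe1. Each is printed 5′ to 3′ in the direction of its gene, 250 bases before and 30 after the start, with the matched units in capitals.
Hspa1b, chr17:34959209-34959488, minus strand: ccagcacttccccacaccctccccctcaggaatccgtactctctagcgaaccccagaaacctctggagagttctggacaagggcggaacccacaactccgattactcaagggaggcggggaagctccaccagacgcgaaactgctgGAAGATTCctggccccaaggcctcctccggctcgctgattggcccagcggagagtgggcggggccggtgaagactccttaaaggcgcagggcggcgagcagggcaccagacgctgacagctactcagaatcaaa
Hspb1, chr5:135887669-135887948, plus strand: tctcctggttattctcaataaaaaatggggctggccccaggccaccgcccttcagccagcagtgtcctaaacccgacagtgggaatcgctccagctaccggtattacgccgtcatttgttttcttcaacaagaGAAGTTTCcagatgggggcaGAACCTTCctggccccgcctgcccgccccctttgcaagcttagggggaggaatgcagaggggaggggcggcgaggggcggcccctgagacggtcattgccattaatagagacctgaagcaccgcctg
Hsph1, chr5:149636286-149636565, minus strand: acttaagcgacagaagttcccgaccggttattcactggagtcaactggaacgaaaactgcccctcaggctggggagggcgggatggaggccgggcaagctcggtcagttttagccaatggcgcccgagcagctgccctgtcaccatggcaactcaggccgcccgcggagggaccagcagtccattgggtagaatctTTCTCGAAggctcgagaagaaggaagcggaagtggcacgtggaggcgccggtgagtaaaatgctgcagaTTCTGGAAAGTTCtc
Hspe1, chr1:55087898-55088177, plus strand: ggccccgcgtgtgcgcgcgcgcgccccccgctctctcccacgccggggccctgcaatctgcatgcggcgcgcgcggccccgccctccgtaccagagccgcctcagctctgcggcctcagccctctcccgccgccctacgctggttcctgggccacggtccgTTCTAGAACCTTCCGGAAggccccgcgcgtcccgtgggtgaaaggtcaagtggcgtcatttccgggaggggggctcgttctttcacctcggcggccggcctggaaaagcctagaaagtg
Chordc1, chr9:18292017-18292296, plus strand: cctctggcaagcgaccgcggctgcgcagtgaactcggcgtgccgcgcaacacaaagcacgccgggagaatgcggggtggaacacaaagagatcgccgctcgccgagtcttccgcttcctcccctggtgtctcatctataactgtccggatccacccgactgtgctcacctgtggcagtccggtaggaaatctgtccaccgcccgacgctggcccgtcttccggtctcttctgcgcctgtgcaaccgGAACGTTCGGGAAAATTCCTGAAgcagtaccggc

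In Hspa1b the matched unit pair lies at bases -104 to -97 from the start, and the window of its neighbour Hspa1a is identical at 296 of 300 bases and has the same pair. Hspb1 has matches at -117 to -110 and at -97 to -90. In Hsph1 a 2-unit match at -54 to -47 is joined by a 3-unit match at 16 to 28, after the start. The 3-unit matches of Hspe1, at -89 to -77 and -84 to -72, are the same genomic bases (chr1:55088059-55088076) as those of Hspd1 read from the other strand, since these 2 genes run head to head from one stretch of DNA. Chordc1 has 3 overlapping 3-unit matches between -4 and 19.

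At day 1 most of the 34 genes stood higher than at day 0 in both genotypes. In KO cells 26 were higher and 2 lower by edgeR's quasi-likelihood test (adjusted p under 0.05 over all genes tested), against 30.5% and 27.6% of all genes tested that were higher and lower. In WT cells 30 were higher and 1 lower, against 28.6% and 26.9% of all genes. The median log2 fold change of the 34 was 0.99 in KO and 1.25 in WT, against 0.05 and 0.01 for all genes, and 26 genes were called higher in both. The 4 genes not called higher in KO although they were in WT were Cryab, Chordc1, Cct5 and Tcp1. Lower at day 1 were Fkbp4 in both genotypes and Hsf2 in KO. Markers of several cell types moved between the same days. All 13 acinar markers were lower at day 1 in both genotypes, with medians of -1.69 in KO and -1.36 in WT. Of 7 fibroblast markers 6 were lower in KO and 7 in WT (medians of -2.55 in KO and -4.03 in WT), and their summed level was 11.99 to 46.8 CPM in KO and 8.82 to 11.7 in WT at day 1, against 135 to 249 in KO and 88.6 to 215 in WT at day 0. All 6 endothelial markers were lower in both genotypes (-2.41 in KO and -2.57 in WT), as were 4 of 5 smooth muscle markers in KO and 5 of 5 in WT, and 5 of 7 macrophage markers in each, while the other 2 macrophage markers were higher. The part of these cell types in the changes between days was not tested. In bulk RNA, fewer cells of a type and less RNA per cell cannot be told apart.

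At day 4 the members called went in both directions, as did the genes called among all those tested. Only the count lower in WT stood clearly above the share of all genes. Against day 1, 7 were higher and 11 lower in KO cells, against 26.2% and 27.1% of all genes, and 9 were higher and 15 lower in WT cells, against 26.3% and 26.0% of all genes. The median log2 fold change was -0.05 in KO and -0.19 in WT. The same 11 genes were lower in both genotypes, 6 were higher in both, and 1 gene, Hspe1, was called in opposite directions. These falls are relative to the other genes: scaled to library totals, whose shift of the median gene is given above, 30 members were higher and 1 (Hspa1a) lower in KO, and 28 were higher and 4 (Hspa1a, Hsph1, Hspb1 and Dnajb1) lower in WT. Under that scaling, 12031 of the 13203 genes tested were higher and 347 lower in KO, and 12204 were higher and 300 lower in WT. Against day 0, day 4 cells still had 27 members higher and 2 lower in KO (35.3% and 29.0% of all genes), and 28 higher and 2 lower in WT (33.5% and 26.9%), where both lower genes were Cryab and Fkbp4 in each genotype.

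**Figure D1:**
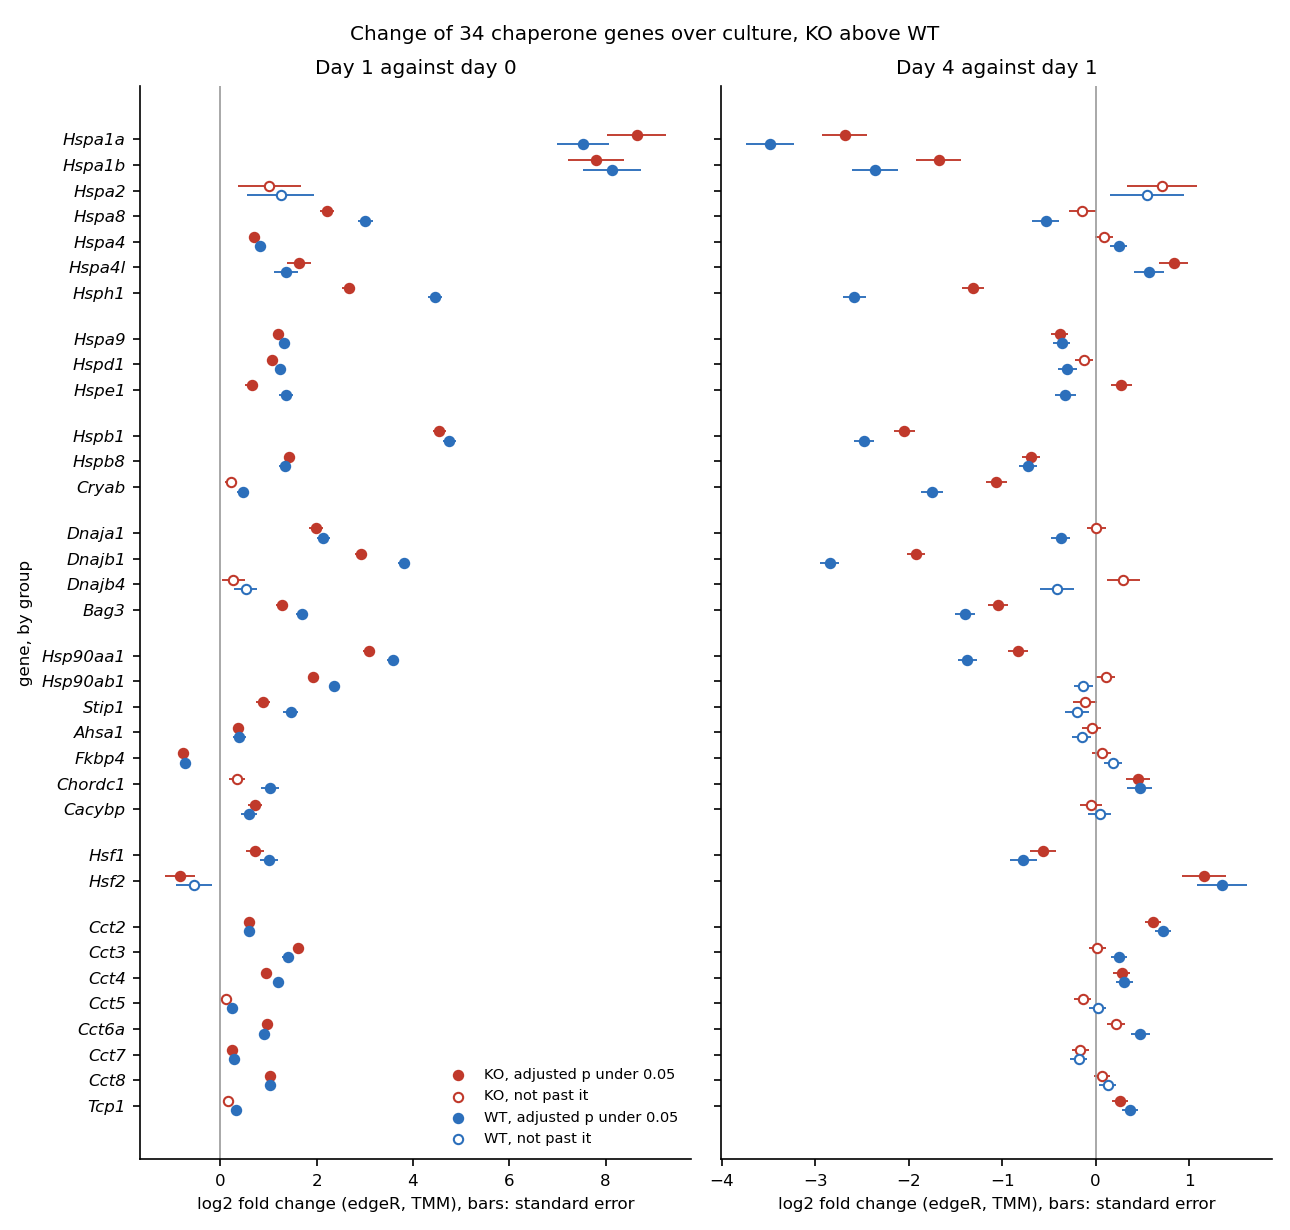
Log2 fold changes (x axis, TMM-scaled edgeR fit, bars are the standard error) of the 34 genes (y axis, by group) between days, with the KO point above the WT point for each gene. At day 1 the points lie mostly right of 0, with a median of 0.99 in KO and 1.25 in WT. At day 4 against day 1, 11 genes in KO and 15 in WT were called lower, against 27.1% and 26.0% of all genes. Of these, 1 in KO and 4 in WT stayed called lower under scaling to library totals, where 347 and 300 of 13203 genes were lower.

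The inducible HSP70 genes were nearly silent in fresh cells and carried the largest changes of the list. Hspa1a (chr17:34969190-34972156, minus strand), an HSP70 that is transcribed on stress, had 0, 0.209 and 0.399 CPM in KO against 0.669, 0.837 and 0 in WT at day 0. Hspa1a then had 94.2, 89.5 and 53.5 CPM in KO against 96.5, 85.01 and 90.6 in WT at day 1, and 12.5, 15.3 and 9.16 in KO against 10.2, 7.73 and 6.35 in WT at day 4. The highest day 0 value was under 1 CPM. Hspa1b (chr17:34956436-34959238, minus strand), its near-identical neighbour, had 0.173, 0.418 and 0.399 CPM in KO against 0.446, 0.419 and 0 in WT at day 0. Hspa1b then had 85.9, 85.9 and 46.7 CPM in KO against 80.8, 73.7 and 82.3 in WT at day 1, and 26.1, 23.3 and 18.9 in KO against 20.7, 14.1 and 11.2 in WT at day 4. The 3 days did not overlap for either gene in either genotype, and KO replicate 3 was the lowest of the 6 libraries at day 1 for both. Over the 3 KO libraries Hspa1a had 3 counts at day 0, so its ratio of day 1 to day 0 was 417 with a 95% counting interval of 142 to 2022, and in WT, with 7 counts, it was 187 (90.9 to 467). For Hspa1b the ratios were 231 (98.7 to 711) in KO, from 5 counts, and 286 (111 to 1049) in WT, from 4 counts. These intervals cover counting error only, and reads of the 2 genes may have been shared out between them, because their sequences are almost the same. Hspa1a also overlaps Gm20481, a protein-coding gene on the opposite strand with 136 counts over the 18 libraries, by 2225 bases.

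From day 1 to day 4, Hspa1a fell with a log2 fold change of -2.69 (SE 0.24) in KO and -3.48 (SE 0.26) in WT, and it was the only member called lower under library totals in both genotypes. Hspa1b fell by a smaller amount in the TMM fit, -1.68 (SE 0.24) in KO and -2.36 (SE 0.25) in WT. Under library totals its change was 0.15 in KO, a reversal, and -0.37 in WT with an adjusted p of 0.17. At day 4 the means of both genes were higher in KO than in WT, with log2 differences of 0.60 and 0.57, but neither passed edgeR's test over all genes (adjusted p = 0.14 and 0.16).

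Hspa8, the constitutive HSP70 that also strips clathrin coats, had 164, 251 and 264 CPM in KO against 225, 170.0 and 151 in WT at day 0. Hspa8 then had 1081, 1079.7 and 982 CPM in KO against 1347, 1655 and 1399 in WT at day 1, and 916, 1017 and 914 in KO against 1096, 930.4 and 1010.4 in WT at day 4. Day 1 was above day 0 in every library of both genotypes, with a log2 fold change of 2.21 (SE 0.15) in KO and 3.01 (SE 0.16) in WT. All 3 KO libraries lay below all 3 WT libraries at day 1, but the difference of -0.49 (SE 0.14) did not pass the test (adjusted p = 0.0851). From day 1 to day 4 Hspa8 fell in WT by the count test (-0.54 (SE 0.14)), and did not pass in KO (-0.14 (SE 0.14), adjusted p = 0.42). The sign of that WT change turned under library totals (1.45) and in limma on the deposited FPKM values (1.41).

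Hsph1 (chr5:149614287-149636376, minus strand), an HSP110 protein that exchanges the nucleotide of HSP70, had 17.3, 24.2 and 20.7 CPM in KO against 14.9, 11.7 and 11.2 in WT at day 0. Hsph1 then had 141, 142 and 111 CPM in KO against 283, 309.5 and 237 in WT at day 1, and 54.99, 54.1 and 49.7 in KO against 51.2, 43.8 and 43.7 in WT at day 4. At day 1 all 3 KO libraries lay far below the WT libraries, while at day 0 all 3 lay above them and at day 4 the genotypes overlapped. The rise to day 1 was 2.67 (SE 0.14) in KO and 4.46 (SE 0.15) in WT on the log2 scale, a fold of 6.35 against 21.96. The other HSP70 relatives moved less. Hspa4 and Hspa4l, HSP110-type exchange factors, were higher at day 1, with log2 fold changes of 0.69 and 1.64 in KO, and 0.82 and 1.37 in WT. Hspa2, known from spermatocytes, had 7 counts in KO and 6 in WT at day 0 and was not called at day 1 (1.02 (SE 0.66) in KO and 1.25 (SE 0.70) in WT).

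**Figure D2:**
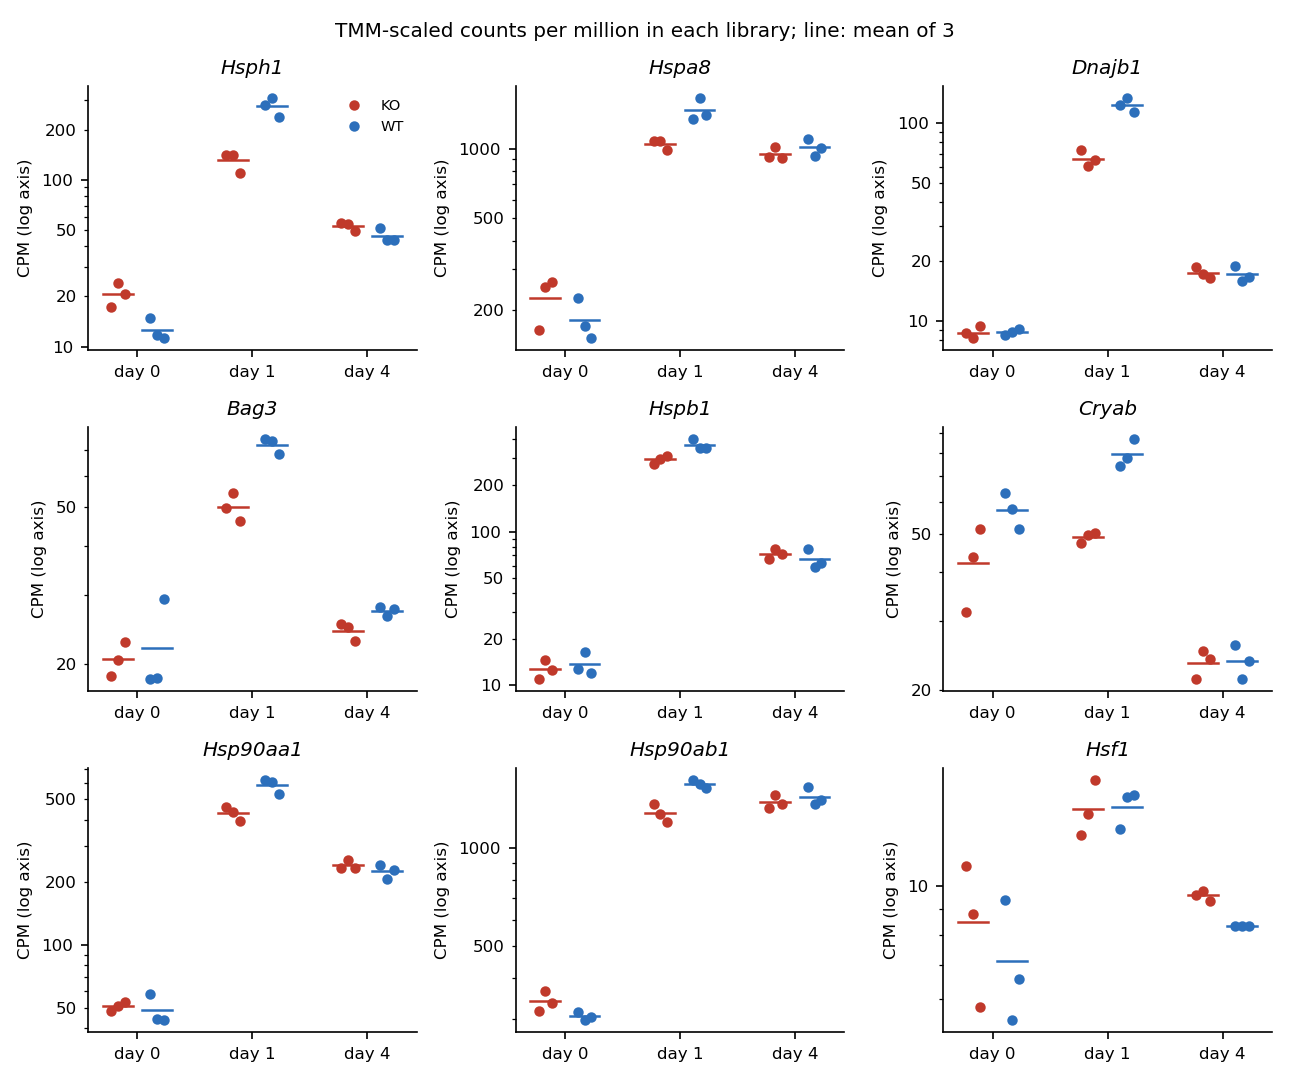
TMM-scaled CPM (y axis, log scale) of 9 of the genes in each library by day, KO left of WT, with a line at the mean of 3 libraries. At day 1 the KO points of Hsph1 (111 to 142 CPM) lie below the WT points (237 to 310 CPM), while at day 4 they overlap.

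The mitochondrial chaperones made a smaller rise. Hspa9, the HSP70 of the matrix that also pulls imported proteins inward, had 149, 154 and 164 CPM in KO against 151, 124 and 130.4 in WT at day 0. Hspa9 then had 339, 371 and 364 CPM in KO against 351, 314 and 345 in WT at day 1, and 252, 286 and 286 in KO against 257, 261 and 268 in WT at day 4. Day 1 was the highest day in both genotypes. Hspd1 (chr1:55077835-55088243, minus strand), the HSP60 ring, had 46.7, 58.1 and 48.6 CPM in KO against 64.3, 53.2 and 50.2 in WT at day 0. Hspd1 then had 101, 118 and 103 CPM in KO against 139, 138 and 121 in WT at day 1, and 93.4, 105 and 98.1 in KO against 113, 106 and 103 in WT at day 4. Its day 1 and day 4 values overlapped in KO and did not overlap in WT. Hspe1 (chr1:55088132-55091307, plus strand), the HSP10 lid of that ring, had 14.7, 16.7 and 20.5 CPM in KO against 12.05, 12.6 and 16.8 in WT at day 0. Hspe1 then had 33.1, 23.4 and 24.6 CPM in KO against 36.9, 37.02 and 33.3 in WT at day 1, and 32.9, 33.1 and 32.3 in KO against 29.3, 27.9 and 28.5 in WT at day 4. All 3 were called higher at day 1 in both genotypes, with log2 fold changes of 1.198, 1.08 and 0.65 in KO, and 1.32, 1.25 and 1.36 in WT, and for each gene the day 0 and day 1 libraries did not overlap. Hspd1 and Hspe1 overlap by 112 bases on opposite strands and the strand setting of the counting is not given in the sources used here, so reads from the overlap cannot be assigned with certainty. The processed copy Hspd1-ps3 took 2514 counts over the 18 libraries beside 46666 for Hspd1.

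From day 1 to day 4 Hspe1 was called higher in KO (0.28 (SE 0.11)) and lower in WT (-0.32 (SE 0.11)). The KO call was lost without KO replicate 2 (adjusted p = 0.22) or 3 (0.15) of day 1 or any 1 of the KO libraries of day 4 (0.066 to 0.085), and the WT call without WT replicate 1 or 2 of day 1 or WT replicate 2 of day 4 (0.055 to 0.060). The KO libraries at day 1 were uneven, with replicate 1 above replicates 2 and 3, and replicate 1 was close to its day 4 level. Under library totals the WT value turned to 1.66, as did those of Hspa9 in both genotypes (1.45 in KO and 1.62 in WT) and of Hspd1 in WT (1.68), whose WT call was also lost without replicate 1 (adjusted p = 0.058) or 2 (0.054) of day 1.

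The small heat shock proteins, which hold unfolded chains without using ATP, each followed their own course. Hspb1 (chr5:135887919-135889563, plus strand), HSP27 in human, had 10.9, 14.6 and 12.6 CPM in KO against 12.7, 16.3 and 11.98 in WT at day 0. Hspb1 then had 277, 299 and 311 CPM in KO against 402, 350.4 and 354 in WT at day 1, and 66.6, 77.4 and 71.1 in KO against 77.1, 58.9 and 62.5 in WT at day 4. Its rise to day 1 was 4.55 (SE 0.14) in KO and 4.75 (SE 0.14) in WT, and its fall to day 4 was -2.04 (SE 0.11) in KO and -2.48 (SE 0.11) in WT. Per kilobase of gene length, Hspb1 ranked 16 of the 34 in KO and 12 in WT at day 0 and 2 in both at day 1, with a mean of 287 CPM per kb in KO and 357 in WT. Day 4 remained above day 0 in every library.

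Hspb8, the partner of Bag3 in delivering misfolded proteins to autophagy, had 17.6, 20.3 and 25.7 CPM in KO against 22.1, 19.7 and 20.9 in WT at day 0. Hspb8 then had 54.3, 61.2 and 55.8 CPM in KO against 50.7, 49.1 and 59.3 in WT at day 1, and 34.7, 36.5 and 34.9 in KO against 31.2, 30.6 and 34.8 in WT at day 4. Its log2 fold change at day 1 was 1.43 (SE 0.12) in KO and 1.35 (SE 0.12) in WT, and at day 4 against day 1 it was -0.69 (SE 0.10) in KO and -0.72 (SE 0.10) in WT, which turned to 1.14 in KO and 1.26 in WT under library totals. Cryab (chr9:50752758-50756633, plus strand), alpha-B-crystallin, had 31.6, 43.5 and 51.2 CPM in KO against 63.4, 57.8 and 51.4 in WT at day 0. Cryab then had 47.3, 49.4 and 50.3 CPM in KO against 74.4, 77.8 and 86.9 in WT at day 1, and 21.4, 25.1 and 23.96 in KO against 26.03, 21.3 and 23.8 in WT at day 4. Per kilobase it was the highest of its group at day 0, at 35.5 CPM per kb in KO and 48.5 in WT. It was called higher at day 1 in WT (0.47 (SE 0.12)) but not in KO (0.22 (SE 0.12), adjusted p = 0.13), and at day 4 it was below its day 0 level in both genotypes, by -0.84 (SE 0.12) in KO and -1.28 (SE 0.12) in WT. Under library totals those last values turned to 2.25 in KO and 1.70 in WT.

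Dnajb1 (chr8:83608175-83611902, plus strand), the HSP40 that activates HSP70 and restrains HSF1, had 8.65, 8.15 and 9.37 CPM in KO against 8.48, 8.79 and 9.08 in WT at day 0. Dnajb1 then had 73.4, 60.4 and 64.7 CPM in KO against 124, 134 and 114 in WT at day 1, and 18.7, 17.3 and 16.5 in KO against 19.05, 15.9 and 16.7 in WT at day 4. Levels at day 0 were almost the same in all 6 libraries, and at day 1 no KO library reached any WT library. The rise to day 1 was 2.92 (SE 0.13) in KO and 3.81 (SE 0.13) in WT, and the fall to day 4 was -1.92 (SE 0.10) in KO and -2.85 (SE 0.10) in WT. Bag3, which links HSP70 to small heat shock proteins, had 18.7, 20.5 and 22.7 CPM in KO against 18.3, 18.4 and 29.2 in WT at day 0. Bag3 then had 49.7, 54.3 and 46.3 CPM in KO against 74.5, 73.5 and 68.3 in WT at day 1, and 25.3, 24.8 and 22.8 in KO against 27.9, 26.4 and 27.7 in WT at day 4. It rose by 1.28 (SE 0.13) in KO and 1.71 (SE 0.13) in WT at day 1 and then fell by the TMM fit, with values of -1.04 (SE 0.11) in KO and -1.40 (SE 0.11) in WT that turned to 0.79 and 0.58 under library totals.

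Dnaja1, a J-domain partner of HSP70 that carries a farnesyl anchor, had 12.8, 6.90 and 9.97 CPM in KO against 8.92, 10.7 and 11.02 in WT at day 0. Dnaja1 then had 40.7, 40.1 and 38.1 CPM in KO against 47.3, 46.8 and 41.6 in WT at day 1, and 41.8, 39.7 and 37.9 in KO against 38.1, 33.9 and 32.8 in WT at day 4. It rose at day 1 (1.98 (SE 0.14) in KO and 2.14 (SE 0.14) in WT), stayed near that level at day 4 in KO (0.01 (SE 0.10)) and fell in WT (-0.37 (SE 0.10), 1.61 under library totals). Dnaja1 overlaps Smu1, a protein-coding gene on the opposite strand, by 608 bases, so reads from that overlap cannot be assigned with certainty. Dnajb4 had 3.80, 4.39 and 10.8 CPM in KO against 5.58, 8.58 and 5.60 in WT at day 0. Dnajb4 then had 8.08, 7.84 and 6.73 CPM in KO against 8.80, 9.93 and 9.75 in WT at day 1, and 9.26, 9.75 and 8.92 in KO against 7.58, 7.48 and 6.35 in WT at day 4. Its libraries overlapped between days, with KO replicate 3 at day 0 above all KO libraries of day 1, and the only call was day 4 against day 0 in KO (0.57 (SE 0.22)), lost without KO replicate 1 of day 0 (adjusted p = 0.28), KO replicate 2 of day 0 (0.16) or KO replicate 2 of day 4 (0.056).

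Both cytosolic HSP90 genes rose at day 1, and they then parted. Hsp90aa1 (chr12:110690605-110702728, minus strand), the inducible HSP90, had 48.1, 51.2 and 53.02 CPM in KO against 58.5, 44.2 and 43.5 in WT at day 0. Hsp90aa1 then had 461, 436 and 391.9 CPM in KO against 619, 609 and 529 in WT at day 1, and 235, 256 and 233 in KO against 242, 208 and 229 in WT at day 4. Its day 1 values were the highest of the 3 days, and those of KO were all under those of WT. Hsp90ab1 (chr17:45567775-45573271, minus strand), the constitutive one, had 317, 364 and 336 CPM in KO against 315, 296 and 304 in WT at day 0. Hsp90ab1 then had 1362, 1271 and 1203 CPM in KO against 1613, 1569.6 and 1522 in WT at day 1, and 1328, 1448 and 1363 in KO against 1536, 1364 and 1402 in WT at day 4. At day 1 Hsp90aa1 rose by 3.08 (SE 0.12) in KO and 3.59 (SE 0.12) in WT, and Hsp90ab1 by 1.92 (SE 0.10) in KO and 2.36 (SE 0.11) in WT. At day 4 Hsp90aa1 was down by the TMM fit (-0.83 (SE 0.10) in KO and -1.37 (SE 0.11) in WT, turning to 0.999 and 0.61 under library totals), whereas Hsp90ab1 was not called (0.11 in KO and -0.13 in WT). Per kilobase, Hsp90ab1 was the highest of the 34 genes in all 6 groups, at 113 CPM per kb in KO and 102 in WT at day 0, 426 and 523 at day 1, and 460 and 478 at day 4.

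Stip1, the adaptor that joins HSP70 to HSP90, had 18.9, 34.7 and 31.3 CPM in KO against 27.00, 17.4 and 19.9 in WT at day 0. Stip1 then had 50.5, 55.4 and 49.5 CPM in KO against 52.9, 64.2 and 59.4 in WT at day 1, and 48.1, 49.6 and 46.4 in KO against 54.7, 48.6 and 50.8 in WT at day 4. The day 0 libraries were widely spread, from 18.9 to 34.7 CPM in KO and from 17.4 to 27.0 CPM in WT, and all lay below those of day 1. The rise was 0.89 (SE 0.15) in KO and 1.46 (SE 0.16) in WT. Chordc1, an HSP90 co-chaperone also called morgana, had 10.9, 14.4 and 9.37 CPM in KO against 5.58, 5.65 and 9.86 in WT at day 0. Chordc1 then had 14.7, 15.8 and 13.4 CPM in KO against 16.6, 14.4 and 12.6 in WT at day 1, and 19.97, 21.1 and 19.1 in KO against 21.6, 20.6 and 18.2 in WT at day 4. It passed the test at day 1 in WT (1.03 (SE 0.19)) and not in KO (0.35 (SE 0.17), adjusted p = 0.0767), where replicate 2 at day 0 overlapped the day 1 libraries, and at day 4 it was called higher than at day 1 in both (0.46 (SE 0.13) in KO and 0.47 (SE 0.13) in WT). The KO call at day 4 was lost in limma on FPKM (adjusted p = 0.26 to 0.32).

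Ahsa1, which speeds the ATPase of HSP90, rose at day 1 by 0.38 (SE 0.12) in KO and 0.40 (SE 0.13) in WT, and Cacybp, an adaptor of HSP90 and ubiquitin ligases, by 0.72 (SE 0.15) in KO and 0.60 (SE 0.16) in WT. In WT the Ahsa1 libraries overlapped between the days and its call was lost with the 2 groups alone (adjusted p = 0.062), and that of Cacybp was lost in limma on FPKM (0.13 to 0.15). Fkbp4, the immunophilin that couples HSP90 to steroid receptors, was singled out after its values were seen, as the one member lower at day 1 in both genotypes. It had 132, 160.3 and 139.9 CPM in KO against 172, 131 and 127 in WT at day 0. Fkbp4 then had 87.1, 83.3 and 84.02 CPM in KO against 82.9, 89.6 and 86.8 in WT at day 1, and 89.7, 88.6 and 87.9 in KO against 105, 94.2 and 96.2 in WT at day 4. The day 0 libraries lay above all later ones, with log2 fold changes at day 1 of -0.76 (SE 0.10) in KO and -0.73 (SE 0.10) in WT, which turned to 0.49 and 0.28 under library totals.

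Of the 2 heat shock factors, Hsf1 was higher at day 1 in both genotypes, and Hsf2 was called lower in KO alone, a call lost without either of 2 KO libraries. Hsf1, the main activator of chaperone genes, had 10.9, 8.78 and 5.78 CPM in KO against 9.37, 5.44 and 6.57 in WT at day 0. Hsf1 then had 12.5, 13.8 and 16.1 CPM in KO against 12.9, 14.9 and 15.04 in WT at day 1, and 9.60, 9.76 and 9.33 in KO against 8.35, 8.32 and 8.33 in WT at day 4. It was called higher at day 1 (0.72 (SE 0.18) in KO and 1.01 (SE 0.19) in WT) and then lower at day 4 (-0.56 (SE 0.14) in KO and -0.78 (SE 0.14) in WT, turning to 1.28 and 1.21 under library totals). Hsf2, a relative that forms mixed trimers with HSF1, had 3.63, 5.64 and 3.79 CPM in KO against 1.56, 1.67 and 5.22 in WT at day 0. Hsf2 then had 2.40, 3.21 and 1.62 CPM in KO against 2.04, 2.28 and 1.67 in WT at day 1, and 5.87, 5.72 and 4.71 in KO against 5.53, 4.86 and 4.90 in WT at day 4. It was lower at day 1 in KO (-0.83 (SE 0.31), adjusted p = 0.0244) but not in WT (-0.54 (SE 0.37), adjusted p = 0.23), where replicate 3 at day 0 stood far above the other 2. The KO call was lost without KO replicate 2 at day 0 (-0.60, adjusted p = 0.17) or without KO replicate 3 at day 1 (-0.62, adjusted p = 0.11), and under library totals the value was 0.42. At day 4 Hsf2 stood above day 1 in every library of both genotypes.

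Most TRiC subunits were higher at day 1, and some were higher again at day 4. At day 1, 6 of 8 subunits were higher in KO and 8 of 8 in WT, against 30.5% and 28.6% of all genes. Their log2 fold changes were 0.13 to 1.62 in KO and 0.25 to 1.40 in WT. At day 4 against day 1, 3 of 8 were higher in KO and 5 of 8 in WT, against 26.2% and 26.3% of all genes. None was called lower in either, against 27.1% of all genes in KO and 26.0% in WT. Cct7 nevertheless had all its day 4 libraries below those of day 1 in both genotypes (-0.16 (SE 0.09) in KO, adjusted p = 0.13, and -0.18 (SE 0.09) in WT, adjusted p = 0.0994), as did Cct5 in KO (-0.14 (SE 0.09), adjusted p = 0.22). Cct2 had 69.4, 72.7 and 72.4 CPM in KO against 72.5, 70.6 and 62.4 in WT at day 0. Cct2 then had 111, 113 and 99.4 CPM in KO against 106, 100.4 and 104 in WT at day 1, and 161, 168 and 167 in KO against 174, 166 and 171 in WT at day 4. Its 3 days did not overlap in either genotype, with steps of 0.60 and 0.61 in KO and 0.59 and 0.72 in WT.

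Cct3 had 20.4, 19.9 and 17.3 CPM in KO against 22.1, 15.7 and 20.9 in WT at day 0. Cct3 then had 58.4, 59.3 and 59.4 CPM in KO against 49.7, 52.2 and 52.8 in WT at day 1, and 60.4, 59.9 and 59.3 in KO against 64.4, 60.4 and 59.2 in WT at day 4. It made the largest step of the 8 subunits at day 1, 1.62 (SE 0.11) in KO and 1.40 (SE 0.11) in WT. Cct4 had 54.3, 64.6 and 57.01 CPM in KO against 53.99, 44.6 and 55.1 in WT at day 0. Cct4 then had 114, 114 and 109.6 CPM in KO against 121, 110.1 and 124 in WT at day 1, and 129, 141 and 140.1 in KO against 152, 141 and 145 in WT at day 4. Its day 1 steps were 0.94 (SE 0.10) in KO and 1.21 (SE 0.10) in WT. Cct6a had 39.8, 34.5 and 38.1 CPM in KO against 42.4, 26.6 and 34.01 in WT at day 0. Cct6a then had 70.6, 73.9 and 75.97 CPM in KO against 62.6, 64.9 and 65.9 in WT at day 1, and 86.3, 87.8 and 81.8 in KO against 94.6, 88.4 and 86.9 in WT at day 4. Its day 4 step was called in WT (0.48 (SE 0.10)) and not in KO (0.22 (SE 0.10), adjusted p = 0.0656). The smaller steps at day 1 were those of Cct5 (0.13 (SE 0.09) in KO and 0.25 (SE 0.10) in WT), Tcp1 (0.17 (SE 0.09) in KO and 0.32 (SE 0.09) in WT) and Cct7 (0.25 (SE 0.09) in KO and 0.28 (SE 0.09) in WT). Cct8 rose by 1.03 (SE 0.10) in KO and 1.02 (SE 0.10) in WT. The call of Cct5 in WT, whose day 0 and day 1 libraries overlapped, was lost with median-of-ratios scaling (adjusted p = 0.11), DESeq2 (0.052) and the 2 groups alone (0.17). It was also lost on leaving out replicate 2 of day 0 (adjusted p = 0.15), replicate 3 of day 0 (adjusted p = 0.068) or replicate 3 of day 1 (adjusted p = 0.10). The calls of Cct7 were lost in KO without replicate 1 or 3 of day 0 or replicate 1 of day 1 (adjusted p = 0.063 to 0.097), and in WT without replicate 2 of day 0 or replicate 3 of day 1 (0.053 and 0.056). They were also lost with median-of-ratios scaling (0.082 in KO and 0.063 in WT) and with the 2 groups alone (0.11 in KO and 0.10 in WT), as was that of Tcp1 in WT with the 2 groups alone (0.051). At day 4 the calls of Cct4 in both genotypes were lost in limma on FPKM (adjusted p = 0.70 to 0.73 in KO and 0.32 to 0.34 in WT). At day 4 the WT call of Cct3 (0.25 (SE 0.09)) was lost without replicate 1 of day 1 (adjusted p = 0.072) or of day 4 (0.083), without replicate 1 at every day (0.14) and in limma on log2(FPKM + 0.1) (0.059), and the KO call of Tcp1 (0.26 (SE 0.09)) without replicate 2 of day 4 (0.052).

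Each ring of TRiC holds every subunit once, and transcript levels per kilobase were uneven. The highest over the lowest subunit was 16.7 in KO and 15.5 in WT at day 0, 5.94 in KO and 6.998 in WT at day 1, and 8.96 in KO and 9.01 in WT at day 4. Cct3 was the lowest in all 6 groups, at 3.01 CPM per kb in KO and 3.07 in WT at day 0 and 9.40 in KO and 9.63 in WT at day 4. Cct5 was the highest at day 0 (50.5 in KO and 47.6 in WT) and at day 1 (55.0 in KO and 56.7 in WT), and Cct2 at day 4 (84.2 in KO and 86.8 in WT). At day 1 in KO, Cct2 and Cct5 did not differ beyond their spread (55.0 ± 3.77 and 55.0 ± 1.52 CPM per kb, SD, n = 3). Length here is the gene length given in the count table, which counts every annotated exon of a gene. Cct6a, Cct7, Cct8 and Tcp1 overlap other protein-coding genes on the opposite strand.

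**Figure D3:**
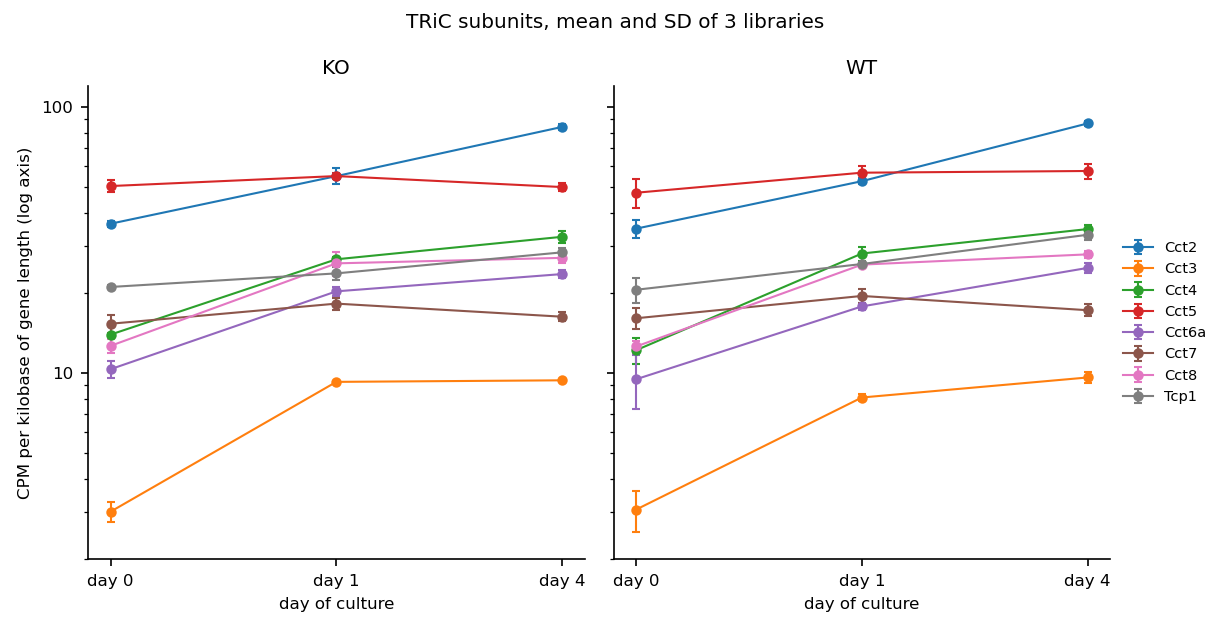
CPM per kilobase of gene length (y axis, log scale, mean and SD of 3 libraries) of the 8 TRiC subunits by day, KO left and WT right. Cct3 is the lowest line throughout (3.01 to 9.40 in KO, 3.07 to 9.63 in WT), and Cct2 passes Cct5 at day 4.

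Ratios of 2 genes within a library do not depend on how libraries are scaled, and 4 were compared between days with exact two-sided permutation tests over 6 libraries per day, p adjusted over 8 tests. Within a genotype 3 libraries against 3 cannot go below an exact p of 0.10, so the genotypes were pooled in an exact test. Per length, the 2 inducible HSP70 genes were 0.00318 of Hspa8 in KO and 0.00589 in WT at day 0, 0.207 in KO and 0.168 in WT at day 1, and 0.0537 in KO and 0.0335 in WT at day 4. The log2 ratio was higher by 5.20 at day 1 than at day 0, and it changed by -2.15 at day 4 against day 1 (adjusted exact permutation p = 0.00346 for both, and 0.00216 is the smallest p the design allows before adjustment). At day 1 the inducible genes thus stood nearer to Hspa8 in every library than at the other days. At day 0, Hspa1a and Hspa1b each had at most 4 counts in a library, and 0 in WT replicate 3. The size of the 5.20 rise therefore depends in part on the pseudocount of 1 count, and the WT log2 ratio at day 0 had an SD of 1.46.

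Hsp90aa1 was 0.115 of Hsp90ab1 per length in KO and 0.121 in WT at day 0, 0.256 in KO and 0.285 in WT at day 1, and 0.133 in KO and 0.120 in WT at day 4, with log2 changes of 1.19 and -1.09 (adjusted exact permutation p = 0.00346 for both). No library of day 1 overlapped those of day 0 or day 4. Hsf1 was 2.63 times Hsf2 in KO and 4.54 times in WT at day 0, 8.38 in KO and 9.44 in WT at day 1, and 2.30 in KO and 2.13 in WT at day 4, with log2 changes of 1.49 (adjusted exact permutation p = 0.00866) and -1.91 (0.00346). For the HSP60 and HSP10 genes, Hspd1 over Hspe1 changed by 0.16 (adjusted exact permutation p = 0.41) and -0.20 (0.18), and the libraries of the 3 days overlapped. These pooled values join unlike courses, since the ratio changed by 0.45 and then -0.42 in KO, and by -0.12 and then 0.02 in WT, a difference that was not tested.

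**Figure D4:**
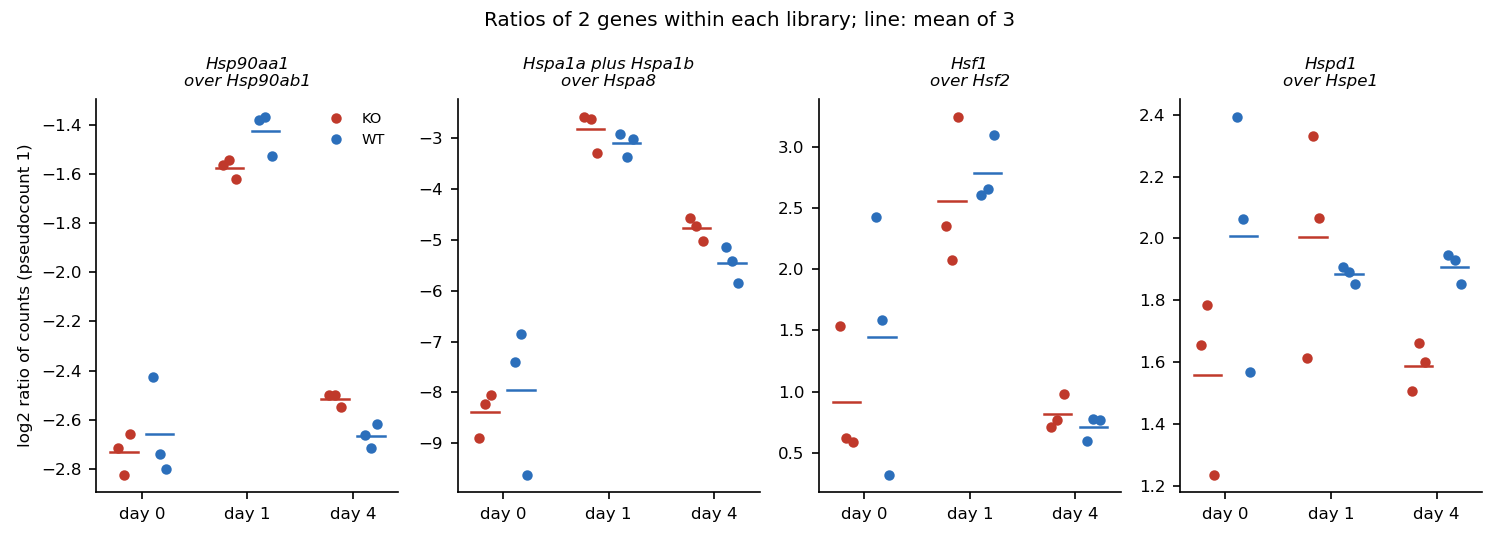
Log2 ratio of the counts of 2 genes within each library (y axis) by day, KO left of WT, lines at the mean of 3. The day 1 points of Hsp90aa1 over Hsp90ab1 (-1.62 to -1.37) lie above all others, while those of Hspd1 over Hspe1 overlap between days.

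Between genotypes the 34 genes differed little at day 0 and day 4 in the fit of all 18 libraries, and 5 were lower in KO at day 1. The 3 members with the largest rises in WT were not among those 5. Their day 1 differences were -0.20 for Hspa1a, -0.11 for Hspa1b and -0.32 for Hspb1 (edgeR adjusted p = 0.78, 0.89 and 0.13). At day 0, 1 gene was higher and 0 lower in KO, against 0.644% and 0.530% of all genes. At day 1, 0 were higher and 5 lower, against 0.273% and 1.18% of all genes, and 23 of the 34 log2 differences were negative (median -0.10). At day 4, 0 were higher and 0 lower by edgeR, against 3.83% and 6.39% of all genes. There 6 had an unadjusted p under 0.05, and the smallest adjusted p was 0.10 (Tcp1). DESeq2 called 1 higher and 2 lower at day 4, and edgeR on the 2 day 4 groups alone called 8 higher and 2 lower. The share of all genes called in those fits is not given here. For day 4 TRiC, all 8 differences were between -0.22 and -0.04. The 5 genes lower at day 1 were Hsph1, Dnajb1, Cryab, Bag3 and Hsp90aa1, whose values by library are given above. In each, all 3 KO libraries lay below all 3 WT libraries. Of the 34 members, called or not, 13 were separated in that direction at day 1 and 2 in the other. The share of all genes so separated is not given here, and the separation of called genes is no separate evidence.

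Markers of other cell types also differed between genotypes. At day 0, 2 of 5 smooth muscle markers were lower in KO, as was the 1 tested of 7 B and T cell markers (-4.24). The B and T cell markers summed to 0 to 0.418 CPM in KO and 9.37 to 22.2 CPM in WT. No acinar, duct, islet, fibroblast, endothelial or macrophage marker was called between genotypes at day 0. At day 4 all 7 fibroblast markers were lower in KO (median -2.02), with a summed level of 24.9 to 57.1 CPM in KO and 233 to 321 in WT. Of the 13 acinar markers 1 was higher and 5 lower in KO at day 4 (median -0.29), and of 7 duct markers 3 were lower. In the day 1 to day 4 change, 4 of 7 fibroblast markers were more negative in KO (median difference -3.82). The part of these cell types in the differences between genotypes was not tested.

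The largest difference was that of Hsph1, -1.07 (SE 0.11) (adjusted p = 8.32e-07), with a mean of 131 ± 17.8 CPM in KO and 276 ± 36.8 CPM in WT (SD, n = 3, edgeR). Dnajb1 followed with -0.90 (SE 0.09) (adjusted p = 6.77e-07), a fold of 0.535. Cryab differed by -0.70 (SE 0.12) (adjusted p = 0.000814). These 3 calls held under all 16 alternatives run. Bag3 differed by -0.53 (SE 0.11) (adjusted p = 0.00816), which held under 11 of 16 and was lost under library totals (-0.21, adjusted p = 0.31), in limma on FPKM and without WT replicate 2 of day 1 (adjusted p = 0.059). Hsp90aa1 differed by -0.45 (SE 0.10) (adjusted p = 0.022), which held under 8 of 16 and was lost without KO replicate 2 or 3 or WT replicate 1 or 2 of day 1 (adjusted p = 0.10 to 0.14), under library totals (-0.13) and in limma on FPKM (all 3 settings).

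Under library totals, where the median of all genes was 0.32 higher in KO at day 1, 3 members remained lower (Hsph1 -0.75, Dnajb1 -0.58 and Cryab -0.39) and 11 were called higher, 5 of them TRiC subunits. Of the 13203 genes tested, 51 were lower and 2347 higher in KO under that scaling. At the same day the acinar markers summed to 494119 to 552070 CPM in KO and 656629 to 692271 CPM in WT, without overlap; none of the 13 was called and their median log2 difference was -0.32. Their part in the day 1 differences was not tested. Markers of fibroblasts summed to 11.99 to 46.8 CPM in KO and 8.82 to 11.7 CPM in WT at day 1, and none of the 7 was called (median 1.57).

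**Figure D5:**
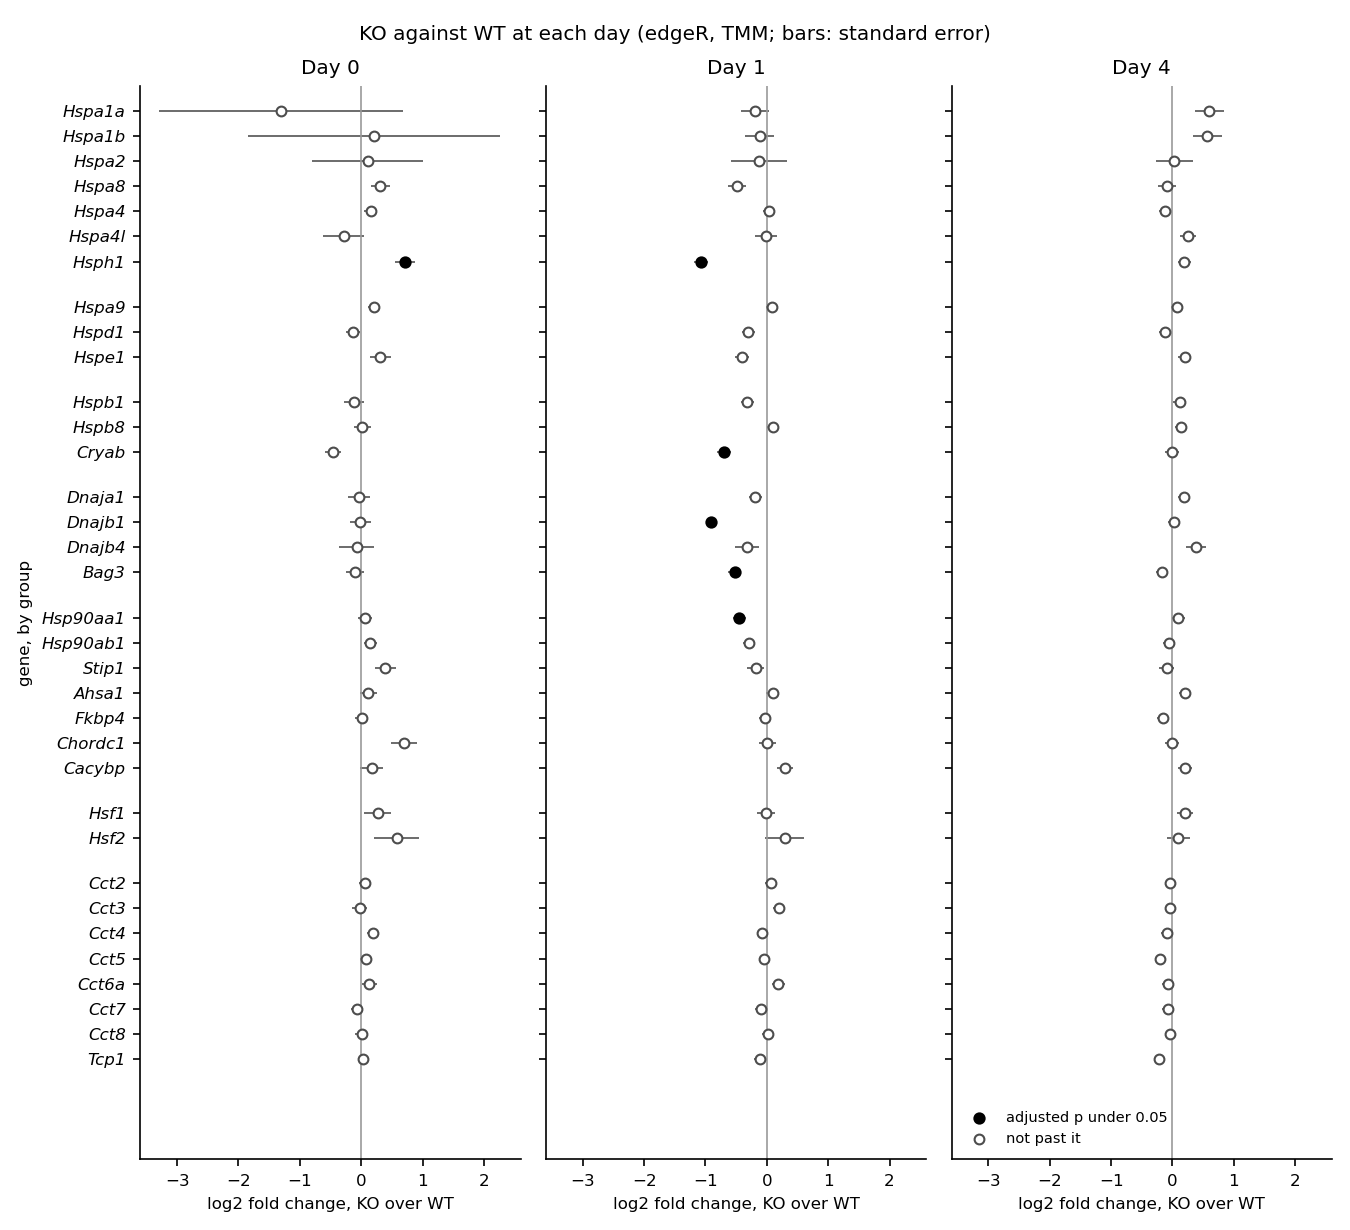
Log2 fold changes of KO over WT (x axis, edgeR with TMM, bars are the standard error) for the 34 genes (y axis, by group) at day 0, day 1 and day 4; filled points passed an adjusted p of 0.05. Filled points are Hsph1 at day 0 (0.72) and, at day 1, Hsph1, Cryab, Dnajb1, Bag3 and Hsp90aa1 (-1.07 to -0.45).

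At day 0, Hsph1 was higher in KO by 0.72 (SE 0.17) (adjusted p = 0.0244), with 20.8 ± 3.48 CPM in KO and 12.6 ± 2.03 CPM in WT (SD, n = 3, edgeR). This call held under 8 of 16 alternatives and was lost without KO replicate 2 (0.59, adjusted p = 0.14), KO replicate 3 (0.72, adjusted p = 0.072), WT replicate 2 (0.67, adjusted p = 0.13) or WT replicate 3 (0.64, adjusted p = 0.086), in limma on FPKM and with the 2 groups alone. Its sign was thus opposite to that at day 1, and at day 4 the difference was 0.20 (SE 0.11) (adjusted p = 0.30).

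The change over time was then compared between genotypes by an interaction term. From day 0 to day 1, the rise of 1 gene was smaller in KO and that of 0 larger, against 0.0833% and 0.0151% of all genes. That gene was Hsph1, by -1.79 (SE 0.20) (adjusted p = 9.56e-06). Dnajb1 had -0.89 (SE 0.20) and did not pass (adjusted p = 0.0573).

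From day 1 to day 4, the change of 5 genes was more positive in KO and that of 0 more negative, against 0.924% and 1.67% of all genes. They were Hsph1 (1.27 (SE 0.16), adjusted p = 2.01e-05) and Dnajb1 (0.93 (SE 0.13), adjusted p = 0.000108), then Cryab (0.69 (SE 0.16), adjusted p = 0.0145), Hspe1 (0.60 (SE 0.16), adjusted p = 0.0355) and Hsp90aa1 (0.54 (SE 0.15), adjusted p = 0.041). This comparison uses the same day 1 libraries as the one at day 1, so it is no separate evidence. The calls of Hsph1 and Dnajb1 held under all 21 alternatives and that of Cryab under 16. The last was lost under library totals, in limma with a mean of at least 1 FPKM (adjusted p up to 0.085 over both), and without WT replicate 3 of day 1, KO replicate 2 of day 4 or WT replicate 2 of day 4 (adjusted p = 0.053 to 0.059). Those of Hspe1 and Hsp90aa1 held under 6 each: both were lost without any 1 of the 6 day 4 libraries, KO replicate 2 or 3 of day 1, or WT replicate 1 or 2 of day 1, with adjusted p up to 0.16 for Hspe1 and 0.14 for Hsp90aa1. Both were also lost under library totals, in limma on FPKM and without WT replicate 1 at every day, with adjusted p up to 0.27 for Hspe1 and 0.43 for Hsp90aa1.

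Related genes outside the list were counted from lists of chaperone partners, 86 genes of which 76 were tested. At day 1 against day 0, 37 of 76 were higher and 19 lower in KO, against 30.5% and 27.6% of all genes, and 34 were higher and 18 lower in WT, against 28.6% and 26.9%. The median log2 fold changes were 0.55 in KO and 0.33 in WT. Among 17 other J-domain proteins, 11 were higher and 2 lower in KO and 10 were higher and 2 lower in WT, with Dnaja4 (0.77 in KO and 1.68 in WT) and Dnajb2 (0.89 in KO and 1.36 in WT) among them. Among 13 further HSP90 co-chaperones tested, 7 were higher and 1 lower in KO and 6 were higher and 2 lower in WT. Ptges3, the p23 that closes the HSP90 clamp, had 1.11 in KO and 2.17 in WT, and Fkbp5, the relative of Fkbp4, had 1.73 in KO and 1.54 in WT.

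Of 14 mitochondrial chaperones and proteases, 5 were higher and 6 lower in KO (median -0.19), and 6 were higher and 4 lower in WT (median 0.05). Lonp1, a matrix protease (1.81 in KO and 1.58 in WT), and Grpel2, an exchange factor of Hspa9 (1.35 in KO and 1.36 in WT), were higher. Lower in both genotypes were Dnajc19 (-1.25 in KO and -1.04 in WT), Dnajc15 (-0.63 in KO and -0.76 in WT), Trap1, the mitochondrial HSP90 (-0.53 in KO and -0.63 in WT), and Clpb (-0.53 in KO and -0.60 in WT). Of 12 prefoldin subunits and TRiC cofactors tested, 5 were higher and 4 lower in KO, and 4 were higher and 3 lower in WT. Among the prefoldins, which hand chains to TRiC, Pfdn2 was higher (1.05 in KO and 0.79 in WT) and Pfdn6 lower (-0.74 in KO and -0.95 in WT). Bag1 was lower in both genotypes (-0.89 in KO and -0.83 in WT), unlike Bag3. Between genotypes, Dnaja4 was lower in KO at day 1 (-0.73, adjusted p = 0.00514 by edgeR) and had a day 1 to day 4 difference of 0.82 (adjusted p = 0.0146 by edgeR), the same signs as Dnajb1.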

How the data were processed

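The authors isolated total RNA, made libraries with a TruSeq kit and sequenced single-end reads on a NovaSeq instrument. Per the labels and the study's methods, reads were trimmed and filtered for quality, aligned to GRCm38 and counted with featureCounts 1.5.3. Which aligner was used, and whether counting was stranded, is not given in the sources used here. The deposited raw counts are whole reads per gene, not normalized. The deposited FPKM values are full-quantile normalized by the authors with EDASeq for 13324 genes and were used only in alternatives. Columns of the authors' own comparisons were not used.

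Counts were fitted in R 4.3.3 with edgeR 4.0.16 (TMM, filterByExpr, robust quasi-likelihood F-test, Benjamini-Hochberg adjustment over 13203 genes), all 18 libraries in 1 model of 6 groups, and a gene was called at an adjusted p under 0.05. Alternatives were median-of-ratios scaling, library totals, DESeq2 1.42.0, no filter, limma 3.58.1 on log2(FPKM + 1) or log2(FPKM + 0.1), the 2 compared groups alone, a replicate block, and leaving out libraries; leaving out WT replicate 1 in comparisons within WT was chosen after seeing the data. Fold changes on the log2(FPKM + pseudocount) scale understate those of low genes. Ratios used a pseudocount of 1 count. The fit was tested on simulated counts for KO against WT at day 1 alone, with known changes in some genes. The simulation held no shift of composition between days, so it does not test the scaling between days. Depth ranged from 12127474 to 20135435 counts, and gene positions are those of the count table, with chromosomes from GENCODE M21. Values by library are given for up to 4 called members of each group with the largest change between days, for members called between genotypes and for genes of the ratios. Members and lists were chosen with earlier results of these data known.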

Additional observations from a re-analysis of the deposited data

Results flagged for a closer look

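In 6 cases the change between days differed between KO and WT cells by edgeR's interaction test, and each value is the KO change minus the WT change on the log2 scale. From day 0 to day 1, Hsph1 differed by -1.79, with rises of 2.67 in KO and 4.46 in WT. From day 1 to day 4, Hsph1 differed by 1.27, Dnajb1 by 0.93, Cryab by 0.69, Hspe1 by 0.60 and Hsp90aa1 by 0.54. All 5 of these have a smaller fall, or for Hspe1 a rise, in KO. Those of Hsph1 and Dnajb1 held under all 21 alternatives, that of Cryab under 16, and those of Hspe1 and Hsp90aa1 under 6 each.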

How the results depend on the processing

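Calls of single members were made 172 times over 11 comparisons, and over all alternatives that bear on them 2499 of 2698 repeats kept direction and side of the threshold, 168 kept direction only and 31 reversed. Scaling to library totals gave 25 of the reversals; the median-of-ratios, DESeq2 and unfiltered fits and all fits without a library gave none. At day 1 against day 0 library totals gave 0 members lower in both genotypes (705 of all 13203 genes in KO and 943 in WT). They turned Fkbp4 to 0.49 in KO and 0.28 in WT and Hsf2 to 0.42 in KO. At day 4 against day 1 they gave 30 higher and 1 lower in KO (12031 and 347 of all 13203 genes) and 28 higher and 4 lower in WT (12204 and 300 of all genes). There they turned Hspa9 to 1.45, Hspb8 to 1.14, Cryab to 0.77, Bag3 to 0.79, Hsp90aa1 to 0.999, Hsf1 to 1.28, Hspa1b to 0.15 and Hsph1 to 0.52 in KO, and in WT Hspa8 to 1.45, Hspa9 to 1.62, Hspd1 to 1.68, Hspe1 to 1.66, Hspb8 to 1.26, Cryab to 0.23, Dnaja1 to 1.61, Bag3 to 0.58, Hsp90aa1 to 0.61 and Hsf1 to 1.21. At day 4 against day 0 they gave 0 lower in both genotypes (348 of all genes in KO and 305 in WT), with Cryab at 2.25 in KO and 1.70 in WT and Fkbp4 at 2.39 in KO and 2.45 in WT. Limma on FPKM gave Hspa8 1.41 in WT at day 4 against day 1 with each pseudocount, and at day 4 against day 0 1 member lower in each genotype and Fkbp4 at 0.0533, 0.0546 and 0.0533 in KO. The cause of these differences was not tested, apart from the scaling itself.

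Counts between genotypes were less stable. Where no count of all genes stands beside a count of members, here and in the next paragraph, it shows only how stable the calls were. At day 0, 1 higher and 0 lower became 2 and 1 with DESeq2 and with no filter, and 0 higher in limma on FPKM (all 3 settings) and with the 2 groups alone. At day 1, 0 higher and 5 lower became 11 and 3 under library totals (2347 and 51 of all 13203 genes), 1 and 8 with DESeq2, and 3 lower in limma (all 3 settings). Limma on log2(FPKM + 1) called 101 of all genes lower in KO at that day. At day 4, 0 and 0 became 1 higher under library totals (1010 of all genes), 1 and 2 with DESeq2, and 8 and 2 with the 2 groups alone. The count of 1 smaller rise to day 1 became 4 with DESeq2, 3 with no filter, 2 in limma (all 3 settings) and 2 without WT replicate 1. The count of 5 from day 1 to day 4 became 2 under library totals, 3, 3 and 2 in limma (the last with a mean of at least 1 FPKM) and 3 without WT replicate 1, and DESeq2 gave 1 in the other direction.

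On leaving out 1 library, the KO count lower at day 1 against day 0 ranged from 1 to 2 (1 without KO replicate 2 of day 0 or KO replicate 3 of day 1). Between genotypes, day 0 ranged from 0 to 2 higher (0 without KO replicate 2 or 3 or WT replicate 2) and 0 to 1 lower (1 without KO replicate 3), day 1 from 3 to 6 lower (3 without WT replicate 2), and day 4 from 0 to 1 higher (1 without WT replicate 1). The smaller rise to day 1 ranged from 1 to 3, and the day 1 to day 4 count from 2 to 5 (2 without replicate 2 of day 4 in KO or in WT). The ratios between genes kept their calls under all alternatives run.

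Libraries with the same number in 1 genotype correlated across days at -0.04 to 0.22 (median 0.068, 6 of 18 over 0.1). Those with different numbers in 1 genotype correlated across days at -0.27 to 0.09 (median -0.035, 0 of 36 over 0.1). Across genotypes, libraries with the same number correlated at -0.16 to 0.16 (2 of 27 over 0.1). The main fit did not pair libraries by number. Whether libraries of a genotype with the same number shared a mouse or a preparation was not tested. With the replicate block within a genotype, 166 of 166 single calls were unchanged; with a block shared by the genotypes, 6 of 6 were, and 2 members became higher in KO at day 4. The number of 3 libraries a group and day 0 counts of 3 to 7 for Hspa1a and Hspa1b limit what these comparisons can show.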

Other observations

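The 27 genes with a RefSeq promoter can be set side by side by the heat shock elements in their windows, as a description without a test. The 4 genes with a 3-unit match had a median log2 fold change at day 1 of 0.86 in KO and 1.30 in WT (0.35 to 2.67 in KO and 1.03 to 4.46 in WT). The 11 genes with 2 units only had 1.28 in KO and 1.35 in WT, and the 12 genes with no match had 0.80 in KO and 0.92 in WT. Dnajb1, which rose by 2.92 in KO and 3.81 in WT, had no match in its window, and Fkbp4, which was lower at day 1 (-0.76 in KO and -0.73 in WT, both positive under library totals), had a 2-unit match. In Stip1, Hspa4 and Hspa4l, which rose in both genotypes, no match was found either.

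Among 76 related genes tested outside the list, 2 were higher in KO at day 0 (Ptges3, 0.92 on the log2 scale, and Yme1l1, a protease of the inner mitochondrial membrane, 0.47), 2 were lower at day 1 (Dnaja4, -0.73, and Hspb11, -1.26), and at day 4 Bag1 was lower (-0.37) and Sirt1, a deacetylase of HSF1, higher (0.44). All passed edgeR's test over all genes, where 0.644% of genes were higher in KO at day 0, 1.18% lower at day 1, and 3.83% higher and 6.39% lower at day 4. The day 1 to day 4 change of Clpx, a mitochondrial unfoldase, was more positive in KO by 0.80. These genes were named after their values were seen, except Ptges3, Dnaja4 and Bag1.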
